A study of Mus musculus with 4 samples.

Results

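The 10 genes described here encode RNA-binding proteins that set how long cytokine transcripts last: Zc3h12a, Zc3h12d, Rc3h1, Rc3h2, Zfp36, Zfp36l1, Zfp36l2, Khsrp, Arid5a and Elavl1. They were chosen by name, by function, with earlier results of these data known. Each matched 1 of the 23356 gene rows of the authors' deposited table. All 10 were among the 11481 genes that the authors tested. The table compares T helper 17 (Th17) cells, the IL-17-producing class of CD4 T cells, from wild-type C57BL/6 mice aged 6 to 8 weeks, grown for 48 h in vitro. In the SAA1 group (2 libraries) the medium held recombinant mouse serum amyloid A1, an acute-phase protein, at a labelled 2 ng/ml, and the vehicle group (2 libraries) is labelled as receiving no treatment. Both groups share the Th17 culture, whose cytokines are not described in the labels, and these are cells differentiated in a dish rather than taken from tissue. Whether the 2 libraries of a group came from separate mice or cultures is not given either.

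Levels are in FPKM, the number of fragments counted per kilobase of transcript after scaling for library depth, and the table gives 1 value per group, so no value per library and no spread can be shown. A log2 ratio is that of SAA1 over vehicle. Its standard error (SE) was worked back from the authors' test statistic, and an interval is the 95% interval, 1.96 SE to each side. This SE was nearly the same for genes of differing level (0.1997 for Zc3h12d, 0.1996 for Rc3h1, 0.1996 for Elavl1 and 0.1997 for Khsrp). It therefore cannot be read as each gene's own spread between its 2 libraries. A gene was called when its adjusted p in the authors' Cuffdiff test was under 0.05. In bulk RNA, less transcript per cell and fewer cells that hold it cannot be told apart. The labelled cell type was checked against markers: Cd3e, Cd3d, Cd3g, Cd4, Cd5, Thy1 and Lck lay between 28.2 and 443 FPKM in both groups. Among these 7, Cd3e was called lower (39.1 and 28.2 FPKM) and Thy1 higher (66.0 and 96.8 FPKM) in SAA1, and the part of such shifts in the results below was not tested. All 7 myeloid markers and all 4 B cell markers stayed under 1 FPKM, with summed levels of 0.578 and 0.412 FPKM (myeloid) and 1.46 and 1.05 FPKM (B cell) in vehicle and SAA1. Cd8b1 was at 4.32 and 4.24 FPKM while Cd8a was at 0.164 and 0.103 FPKM. Of the 3 epithelial or stromal markers, Pecam1, which is also an endothelial and leukocyte gene, was at 4.36 and 3.77 FPKM, and Epcam and Col1a1 were under 1 FPKM.

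Many cytokine messages are short-lived because their 3′ untranslated regions (3′ UTRs) carry signals that recruit decay proteins. ZFP36 and its relatives bind AU-rich elements and bring in the deadenylases that strip the poly(A) tail. Roquin (from Rc3h1 and Rc3h2) and the endonuclease Regnase-1 (from Zc3h12a) recognise small stem-loops, and in T cells restrain messages for costimulatory receptors and cytokines. ELAVL1 (HuR) and ARID5A bind the same kinds of region and protect the message, so that the balance of both sets decides its lifetime.

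The stem-loop signals are shown first because members of the group carry them in their own messages. The search covered 1 annotated 3′ UTR for each of 20628 genes (GENCODE M21, GRCm38, sense strand alone) for a stem of 6 Watson-Crick base pairs closing a loop of 3 bases ordered pyrimidine, purine, pyrimidine. Such a hairpin was found in 7.44% of these UTRs, and in those of Rc3h1, Rc3h2 and Zc3h12a among the 10 genes. Capitals mark the hairpin, whose middle 3 bases form the loop, and T stands for U.
Rc3h1, chr1:160971654-160971680, plus strand: gccaatAACTTCTGTGAAGTTgccttt
Rc3h2, chr2:37373803-37373829, minus strand: ttaattAACTTCTGTGAAGTTgtttac
Tnf, chr17:35199579-35199605, minus strand: agacatGTTTTCTGTGAAAACggagct
Nfkbid, first site, chr7:30428396-30428422, plus strand: ctaggtGATTTCTGTGAAATCgagccc
Nfkbid, second site, chr7:30428424-30428450, plus strand: cttgatTGTTTCTGTGAAACActctag
Zc3h12a, first site, chr4:125119063-125119089, minus strand: cctgttGATACACATTGTATCtctgtc
Zc3h12a, second site, chr4:125118881-125118907, minus strand: ctagttAGGCACCATGTGCCTgctctc
Ctla4, chr1:60915759-60915785, plus strand: ctcaatATTTTCCATGAAAATgcaacc
Both Roquin genes held the same hairpin letter for letter, and the first 5 sequences share the centre TTCTGTGAA. The sites printed are only some of those found. The reported target transcripts Tnfrsf4, Rel, Nfkbiz and Fos also held hairpins, none with that centre. A hairpin with that centre, which was picked out after the sequences were seen, occurred in 30 genes (0.145% of the UTRs searched). These 30 include Rc3h1 and Rc3h2 and the reported target transcripts Tnf and Nfkbid. In Tnf, which encodes the cytokine TNF, this region is the textbook constitutive decay element bound by Roquin. Zc3h12a held 3 hairpins in a 3′ UTR of 856 bases, a length class (within 25%) in which 5.39% of UTRs hold any. Rc3h1 held 4 in 7181 bases (33.3% of UTRs of like length hold any), of which 2 overlap in a TA repeat, and Rc3h2 held 1 in 5160 bases (25.6%).

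The AU-rich signal was searched as TTATTTATT, the form that ZFP36 proteins prefer, with overlapping copies counted. It was found in 6.93% of the 20628 UTRs, and in 6 of the 10 genes: Zfp36, Zfp36l1, Zfp36l2, Rc3h1, Rc3h2 and Elavl1. The members' UTRs are long (median 1829 bases, against 800 over all genes), and longer UTRs hold either signal more often. Capitals mark the first copy, and the sites are those of the ZFP36 family itself, of Elavl1 and of 4 cytokine messages.
Zfp36, chr7:28376951-28376979, minus strand: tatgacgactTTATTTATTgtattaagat
Zfp36l1, chr12:80108167-80108195, minus strand: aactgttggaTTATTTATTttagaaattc
Zfp36l2, chr17:84184914-84184942, minus strand: actatttaacTTATTTATTatcttgtgaa
Elavl1, chr8:4285788-4285816, minus strand: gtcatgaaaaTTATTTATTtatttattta
Csf2, chr11:54247329-54247357, minus strand: ttttaaatatTTATTTATTtatttattta
Tnf, chr17:35199689-35199717, minus strand: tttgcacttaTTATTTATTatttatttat
Il2, chr3:37120898-37120926, minus strand: ttatctgaaaTTATTTATTatattgaatt
Il23a, chr10:128296184-128296212, minus strand: tagatgatggTTATTTATTctatttataa
Each ZFP36 family message held 1 copy, whereas Elavl1 held 8 copies within its 4218 bases, where 17.4% of UTRs of like length hold any. These 8 copies lie in a single stretch, starting between bases 3794 and 3840 of the UTR, and most of them overlap. Csf2 and Tnf, the cytokines GM-CSF and TNF, held 4 and 5 overlapping copies. Arid5a, Khsrp and Zc3h12d held neither signal in the UTR searched. A match is only a run of letters, and binding was not measured.

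Of the 10 regulators, Arid5a alone was called with SAA1, and it rose. In the authors' deposited table, 1 of 10 members was called, against 6.52% of all genes tested, so the number of calls was near the background. ARID5A, which binds stem-loops in messages such as Il6 and Stat3 and protects them, went from 8.88 FPKM in vehicle to 13.6 FPKM in SAA1. The level was 1.53-fold higher (log2 ratio 0.62 ± 0.21, SE), with an interval of 0.21 to 1.02. Its Cuffdiff p of 5e-05 and adjusted p of 0.0019 are the smallest that the authors' deposited table holds, shared by 300 tested genes. Genes with a log2 ratio at least that far from 0 made up 9.17% of those tested. The call ended when the p was taken from the deposited statistic by a normal curve, which gave an adjusted p of 0.11. Arid5a spans chr1:36307733-36324029 on mm10, the whole gene with its introns, and no other row of the table overlaps it.

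**Figure D1:**
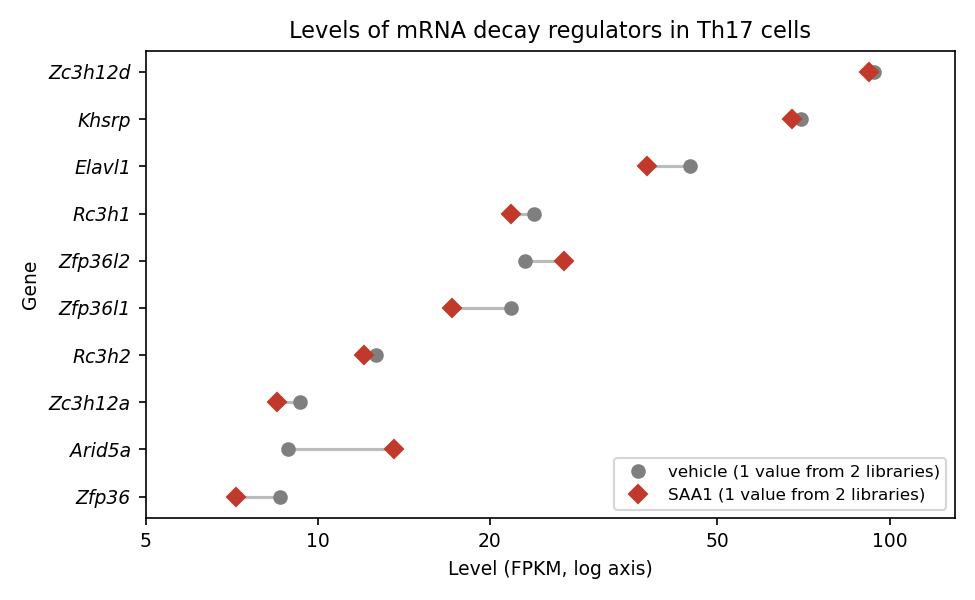
Level of each regulator in vehicle (circles) and SAA1 (diamonds), in FPKM on a log axis, 1 value per group from 2 libraries, ordered by the vehicle level. Zc3h12d and Khsrp sit highest, and Arid5a is the gene whose symbols lie farthest apart, at 8.88 and 13.6 FPKM.

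The other protective factor did not share this direction. Elavl1, the broadly expressed AU-rich element binder HuR, was at 44.8 FPKM in vehicle and 37.7 FPKM in SAA1 and did not pass the test (log2 ratio -0.25 ± 0.20, adjusted p 0.39 in the authors' deposited table). Its interval ran from -0.64 to 0.14. Elavl1 was the main ELAV gene in these cells: Elavl2, Elavl3 and Elavl4, its neuronal relatives, were each under 0.1 FPKM, and Elavl1 made up 99.9% of the summed level in vehicle and 99.8% in SAA1. The level of Elavl1 was 5.05 times that of Arid5a in vehicle and 2.77 times in SAA1. Arid5b, the relative of Arid5a, was at 7.68 and 8.03 FPKM, and so the share of Arid5a in the pair went from 53.6% to 62.9%.

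None of the 8 destabilizing regulators was called. By the authors' Cuffdiff test 0 of 8 passed the adjusted p, 1 had an unadjusted p under 0.05 (15.8% of all tested genes did), and 0 passed by the normal p. Their log2 ratios lay below 0 in 7 of 8, against 53.2% of all tested genes, and their median was -0.10, against -0.02. Their summed level was 263 FPKM in vehicle and 253 FPKM in SAA1.

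The Regnase family was carried by Zc3h12d. Zc3h12d, also known as TFL and a relative of Regnase-1 found mainly in lymphocytes, was the most abundant of the 10 at 94.0 FPKM in vehicle and 91.9 FPKM in SAA1. Its log2 ratio was -0.03 ± 0.20 (interval -0.42 to 0.36). Its locus holds the microRNA row Mir5104, whose reads could not be told apart from its own here. Zc3h12a, which encodes Regnase-1, was at 9.30 and 8.48 FPKM, with a log2 ratio of -0.13 ± 0.23 (interval -0.58 to 0.31). The level of Zc3h12d was thus 10.1 times that of Zc3h12a in vehicle and 10.8 times in SAA1. Zc3h12c, another endonuclease of this family, which is not among the 10, fell from 2.33 to 1.38 FPKM (log2 ratio -0.76 ± 0.27, adjusted p 0.0059 in the authors' deposited table). That call, too, was lost with the normal p. It made up 2.19% of the family's summed level in vehicle and 1.34% in SAA1, and the family total was 106 and 103 FPKM.

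Neither gene of the Roquin pair was called. Rc3h1, which encodes Roquin-1, was at 23.9 FPKM in vehicle and 21.8 FPKM in SAA1 (log2 ratio -0.14 ± 0.20, interval -0.53 to 0.25). Rc3h2, which encodes its partly redundant paralogue Roquin-2, was at 12.6 and 12.1 FPKM (log2 ratio -0.07 ± 0.20, interval -0.46 to 0.33), and its locus holds the small nucleolar RNA row Snord90. The level of Rc3h1 was 1.89 times that of Rc3h2 in vehicle and 1.80 times in SAA1. In the authors' deposited table their adjusted p-values were 0.76 and 0.93. Nufip2, a partner protein of Roquin, was at 26.6 and 25.2 FPKM and was not called.

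No gene of the ZFP36 family was called, and the signs of their ratios differed. Zfp36, which encodes tristetraprolin and is induced by acute activation, was the least abundant of the 10 at 8.61 FPKM in vehicle and 7.19 FPKM in SAA1. Its log2 ratio was -0.26 ± 0.26 (interval -0.77 to 0.25). Zfp36l1, a relative that restrains growth and activation in lymphocytes, was at 21.8 and 17.1 FPKM, with a log2 ratio of -0.35 ± 0.21 and an interval of -0.77 to 0.07. It was the destabilizing gene with an unadjusted p under 0.05 (0.021), and its adjusted p was 0.19 in the authors' deposited table. Zfp36l2, the relative that works with Zfp36l1 in lymphocyte development, was at 23.0 and 26.9 FPKM (log2 ratio 0.23 ± 0.21, interval -0.18 to 0.63). Zfp36l1 and Zfp36l2 were near each other in vehicle, where the level of Zfp36l2 was 1.05 times that of Zfp36l1, and farther apart in SAA1, where it was 1.57 times. Zfp36l2 made up 43.1% of the family's summed level in vehicle and 52.5% in SAA1, Zfp36l1 40.8% and 33.4%, and Zfp36 16.1% and 14.0%. Zfp36l3 was listed at 0 in both groups. The summed level was 53.4 FPKM in vehicle and 51.3 FPKM in SAA1, and the shift in shares was not tested.

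**Figure D2:**
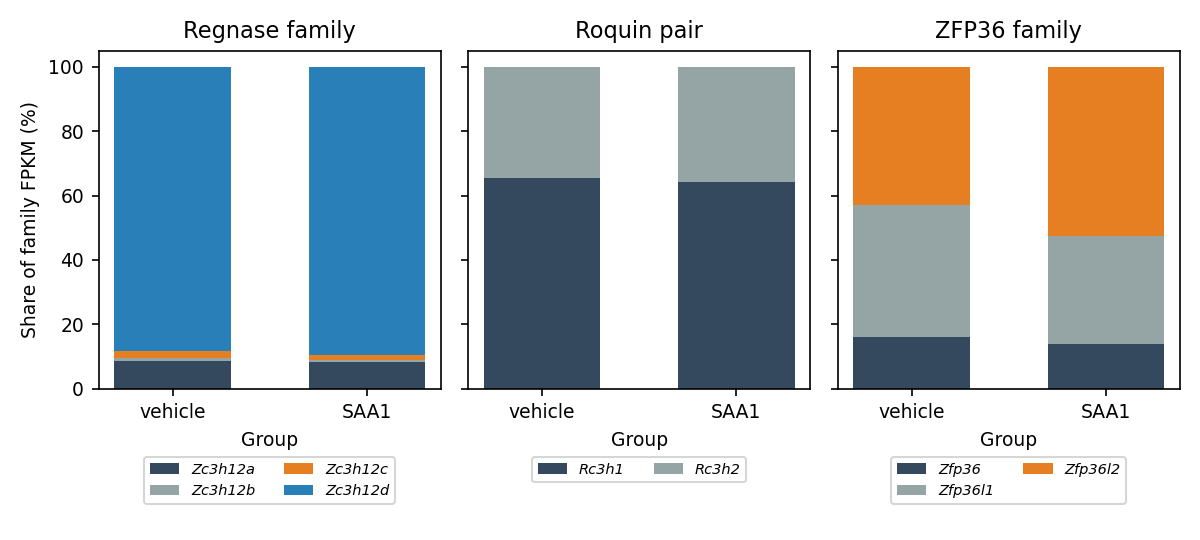
Share of each paralogue in the summed FPKM of its family (percent, stacked to 100), by group, with no error available for group values. Zc3h12d fills most of the Regnase bars (88.3% and 89.7%), and Zfp36l2 takes 43.1% of the ZFP36 bar in vehicle and 52.5% in SAA1.

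Khsrp, which encodes the KH-domain protein KSRP that brings decay enzymes to AU-rich messages, was second in abundance at 69.9 FPKM in vehicle and 67.5 FPKM in SAA1. Its log2 ratio was -0.05 ± 0.20 (interval -0.44 to 0.34, adjusted p 0.96 in the authors' deposited table). In vehicle the order of levels from the top was Zc3h12d, Khsrp, Elavl1, Rc3h1, Zfp36l2, Zfp36l1, Rc3h2, Zc3h12a, Arid5a and Zfp36. In SAA1, Zfp36l2 stood above Rc3h1, and Arid5a above Rc3h2 and Zc3h12a. Without values per library it cannot be said which neighbours in that order differ beyond their spread. The 10 genes ran from the 33.5th to the 90.1st percentile of genes with at least 1 FPKM in vehicle.

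**Figure D3:**
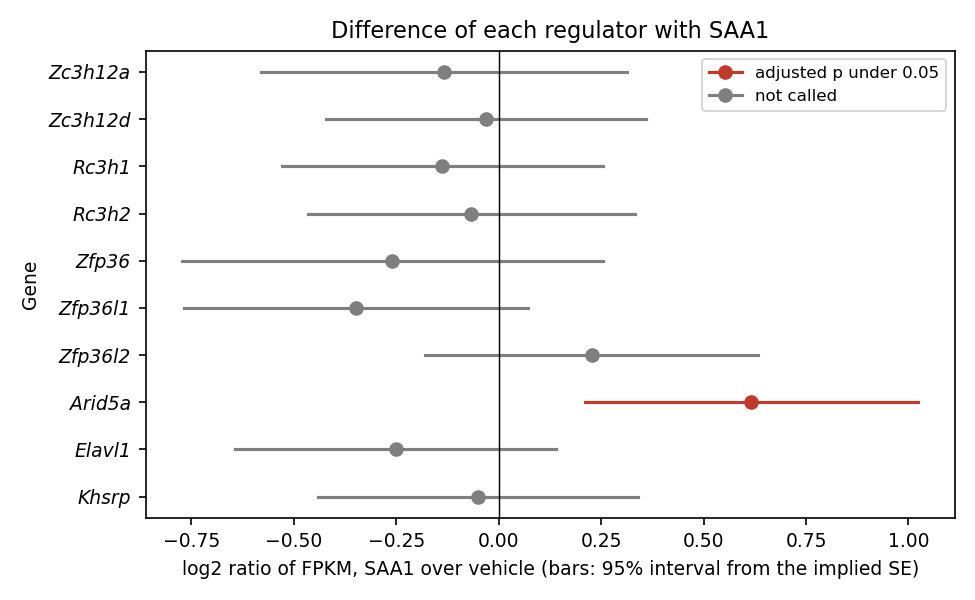
Log2 ratio of SAA1 over vehicle for each regulator, with bars for the 95% interval of 1.96 implied SE to each side, and red for an adjusted p under 0.05. The interval of Arid5a (0.21 to 1.02) lies above 0, and the intervals of the other genes include 0.

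The changes that were called at like levels can be set beside the genes that missed the test. Between 7.19 and 94.0 FPKM in both groups, the span of the 10 regulators, 6237 genes were tested and 238 were called (3.82%). The smallest changes called among them were a 1.33-fold increase and a decrease to 0.749 of the vehicle level. These are the extremes of the 238 calls and not a limit of detection, so a gene could change as much and go uncalled. For the 9 regulators that were not called, the intervals allowed decreases to between 0.585 and 0.882 of the vehicle level, and increases of between 1.05-fold and 1.55-fold.

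The general decay machinery that these regulators recruit held no call. Of 59 listed genes for deadenylation, decapping, the RNA exosome and nonsense-mediated decay, 0 passed the adjusted p of the authors' Cuffdiff test, 5 had an unadjusted p under 0.05, and 0 passed by the normal p. Over all tested genes 6.52% were called and 15.8% had an unadjusted p under 0.05. Among 18 deadenylation genes the median log2 ratio was -0.09, with Parn, a poly(A) nuclease, at 29.4 and 23.4 FPKM and Cnot3, a subunit of the CCR4-NOT deadenylase, at 7.57 and 6.00 FPKM. Cnot2, the most abundant of them, was at 74.2 and 71.0 FPKM. Among 16 decapping genes the median was -0.09, with Lsm6 at 11.3 and 8.95 FPKM, Lsm3 at 161 and 145 FPKM, and Eif4enif1, which shares its locus with other rows, at 25.5 and 32.2 FPKM. The median of the 15 exosome and Ski genes was -0.08. The catalytic subunit Dis3 was at 37.1 and 29.1 FPKM, its partner Exosc10 at 36.6 and 29.9 FPKM, and Exosc3 at 137 and 119 FPKM. Among 10 nonsense-mediated decay factors the median was -0.01. Upf1, the helicase with which Regnase-1 works, was at 40.6 and 39.0 FPKM and Upf3b at 11.9 and 13.6 FPKM. Like Eif4enif1, the genes Cnot3, Dis3 and Upf1 share their loci with other rows.

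Other proteins that bind AU-rich or poly(A) stretches held calls, all of them lower with SAA1. Of 14 tested, 0 were called higher and 3 lower in the authors' deposited table (3.97% and 2.55% of all tested genes). Celf2, a splicing and stability factor of T cells whose locus holds another row, fell from 33.9 to 23.3 FPKM (log2 ratio -0.54 ± 0.20, adjusted p 0.0047). Pabpc1, the main cytoplasmic poly(A)-binding protein, fell from 107 to 75.5 FPKM (-0.50 ± 0.20, adjusted p 0.012), and Fubp1, a relative of Khsrp, from 81.2 to 60.8 FPKM (-0.42 ± 0.20, adjusted p 0.042). These adjusted p-values are the authors' own, and with the normal p 0 of the 3 calls remained. The list's median log2 ratio was -0.15, with 12 of 14 genes below 0. Ybx1, the most abundant, was at 242 and 233 FPKM.

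Genes whose products act on the regulators' proteins held no call, with 8 of 10 log2 ratios above 0, against 46.8% of all tested genes. Of 10 tested, 0 passed the adjusted p of the authors' Cuffdiff test, 2 had an unadjusted p under 0.05, and 0 passed by the normal p, with a median log2 ratio of 0.09. The shares over all tested genes were again 6.52% called and 15.8% with an unadjusted p under 0.05. Malt1, the protease that cleaves Regnase-1 and Roquin after T cell receptor signals, was at 74.4 FPKM in vehicle and 94.0 FPKM in SAA1 (log2 ratio 0.34 ± 0.20, adjusted p 0.18). Mapkapk3, a kinase of the p38 pathway that inactivates tristetraprolin, was at 79.3 and 99.98 FPKM (0.33 ± 0.20, adjusted p 0.16). Ppp2ca, the catalytic subunit of the phosphatase that opposes this step, was at 230 and 243 FPKM.

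**Figure D4:**
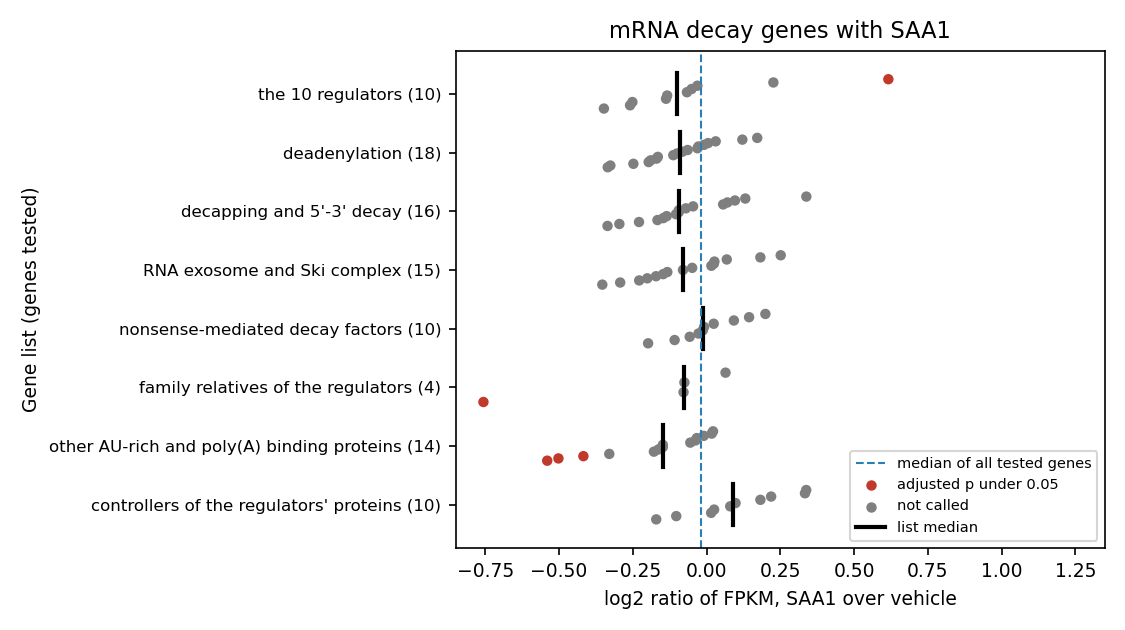
Log2 ratio of SAA1 over vehicle for every tested gene of each list (points, red for an adjusted p under 0.05), with list medians as black bars and the median of all tested genes (-0.02) as a dashed line. The red points are Arid5a among the 10 regulators, Zc3h12c among relatives, and Celf2, Pabpc1 and Fubp1 among other binding proteins.

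Transcripts reported elsewhere as targets of the 10 regulators split into a few with large changes and a majority without a call. Of 28 listed, 20 were tested, and 4 were called higher and 2 lower in the authors' deposited table. That is 30% called, against 6.52% of all tested genes (3.97% higher and 2.55% lower). The median log2 ratio was 0.05, against -0.02 over all tested genes. Values of several of these genes were known when the list was made. Il17a, the defining Th17 cytokine, rose 10.1-fold, Ier3, an immediate early gene whose message is unstable, rose from 13.5 to 36.9 FPKM (log2 ratio 1.45 ± 0.24), and Ctla4, the inhibitory receptor, rose 2.49-fold. Il23a, the p19 chain of IL-23, rose from 3.10 to 5.24 FPKM (0.76 ± 0.32, adjusted p 0.022 by the authors' test). Il3, a growth factor cytokine, fell from 54.1 to 36.9 FPKM (-0.55 ± 0.22, adjusted p 0.011 by the authors' test). Gata3, the Th2 factor, was low in both groups and went from 1.36 FPKM in vehicle to 0.687 FPKM in SAA1, 0.506 of its vehicle level. The calls of Il23a, Il3 and Gata3 were lost with the normal p.

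Of the targets whose hairpins are printed above, Ctla4 was called and Tnf and Nfkbid were not. Tnf was at 128 FPKM in both groups (log2 ratio 0.00 ± 0.20) and Nfkbid, an atypical inhibitor of NF-kB, at 78.2 and 80.5 FPKM (0.04 ± 0.20). Nfkbiz, its relative and a cofactor of Il17a transcription, was at 16.6 and 17.2 FPKM. Icos, the costimulatory receptor gene through which Roquin loss is best known, stood at 55.2 and 54.2 FPKM, Tnfrsf4 (OX40) at 686 and 688 FPKM, and the NF-kB subunit gene Rel at 40.5 and 38.6 FPKM. Stat3, whose message ARID5A protects, was at 112 FPKM in vehicle and 133 FPKM in SAA1 (log2 ratio 0.25 ± 0.20, adjusted p 0.40 in the authors' deposited table). Tbx21, also reported as protected by ARID5A, was at 22.3 and 18.5 FPKM, and Il6, the best known such message, was at 0.0600 and 0.0803 FPKM and not tested. Of the AU-rich cytokine messages, Csf2 was at 11.6 and 9.32 FPKM and Il2, the most abundant target, at 2177 and 1767 FPKM (log2 ratio -0.30 ± 0.21, adjusted p 0.26 in the authors' deposited table).

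**Figure D5:**
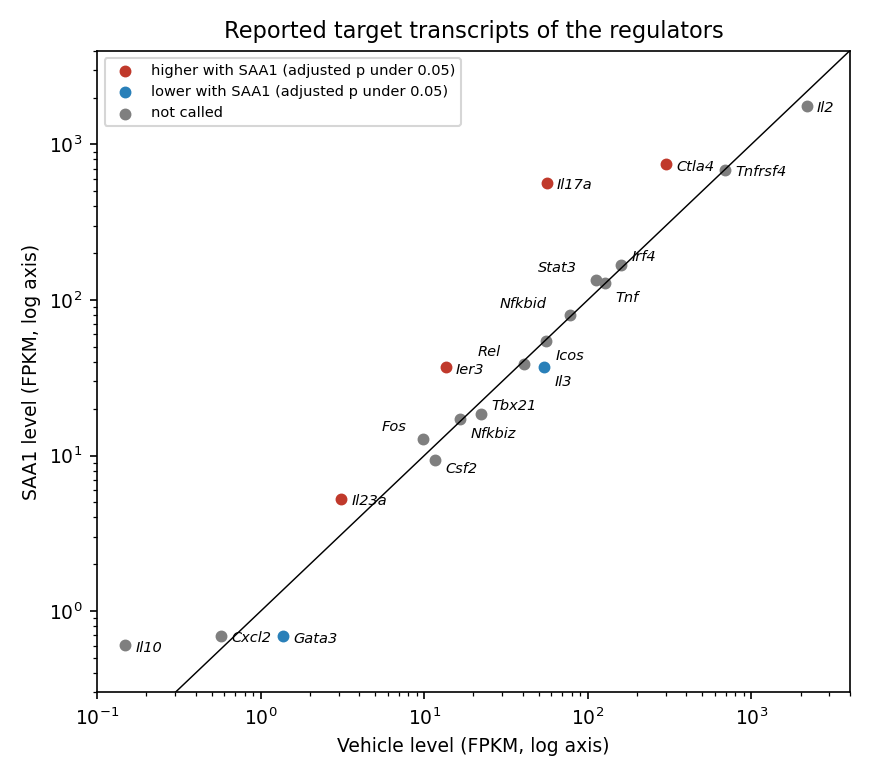
Vehicle level (x) against SAA1 level (y) of the 20 tested target transcripts, in FPKM on log axes, with a line of equal levels and colours for calls at an adjusted p under 0.05. Il17a, Ctla4, Ier3 and Il23a lie above the line in red and Il3 and Gata3 below it in blue, while Tnf, Nfkbid, Icos and Tnfrsf4 lie on it.

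Calls are given first for the targets that hold a signal, then for all tested genes with and without each signal. Of 7 tested targets with TTATTTATT, 1 was called higher (Il23a) and 0 lower in the authors' deposited table, and of 7 with a hairpin, 1 was called higher (Ctla4) and 0 lower. The other called targets, Il17a, Ier3, Il3 and Gata3, held neither signal in the UTR searched. For Il3 that UTR was 101 bases, and only 0.664% of UTRs of like length hold each signal, so the lack says little. Decay signals of other forms were not searched. Across all tested genes with a searched UTR, 721 held TTATTTATT, of which 2.91% were called higher and 2.50% lower, against 4.37% and 2.65% of the 9314 without it. Their median log2 ratios were -0.02 and -0.02. Of 887 tested genes with a hairpin, 4.28% were called higher and 2.37% lower, against 4.26% and 2.67% of 9148 without. Genes with TTATTTATT had longer 3′ UTRs (median 2176 against 877 bases) and lower vehicle levels (median 11.0 against 15.3 FPKM), and these counts are descriptions with no test.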

How the data were processed

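The data are 4 RNA-seq libraries from total RNA, grouped by title. The submitters' processing notes name TopHat2 and Cuffdiff without versions, and the builds mm9 and mm10. No settings for these tools are stated. The authors' deposited table gives an FPKM per group, a test statistic (a score: log ratio over its standard error), and a p-value and q-value per gene. Values per library and depth are not given in it, so intervals rest on that statistic. Log2 ratios were recomputed because the deposited log2 column holds spreadsheet errors. The deposited q was checked as a Benjamini-Hochberg adjustment over tested rows (largest gap 5.23e-07). For 98.5% of tested genes the deposited p is under the normal p of the statistic, so the intervals are wider than the deposited p implies. Loci of all 10 members overlap their GRCm38 positions in RefSeq, so coordinates are mm10, starts counted from 1.

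The members and lists were chosen with earlier results of these data known. The text names all members, from each list at most 4 called genes (or the largest ratios, where fewer than 2 were called) and the most abundant one. A gene that this rule names is not reported here. Gata3, Il23a, Tnf, Nfkbid, Nfkbiz, Icos, Tnfrsf4, Rel, Stat3, Tbx21, Il6, Csf2, Arid5b, Elavl2, Elavl3, Elavl4, Zfp36l3 and the markers were added after values were seen. So were the UTR motifs and the genes Pdzk1ip1, Socs4, Efna4 and Rora. Of 155 listed symbols, 2 were found under a RefSeq synonym and 1 was not found. For each gene the basic protein-coding transcript with the longest coding sequence gave the 3′ UTR. For some genes, such as Icos (106 bases) and Il3 (101 bases), it is short. Alternatives were other thresholds (0.01 and 0.1), a 1.5-fold minimum with and without centring, at least 1 FPKM, pseudocounts of 0.1 and 1, a normal p and removal of shared loci. The adjustment with the normal p was run on simulated data drawn with the implied SE itself. That run cannot show whether this SE is right. The motif search was tested on short sequences with known answers. The authors' Cuffdiff calls were not tested on simulated data. Python 3.11.15, pandas 2.3.3 and scipy 1.17.1 were used.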

Additional observations from a re-analysis of the deposited data

How the results depend on the processing

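No paired analysis was possible because the table gives group values only, and for the same reason no library could be left out; the fits with a replicate block and without each replicate were not run. The call of Arid5a was kept at an adjusted p under 0.01, at least 1.5-fold, centred, without shared loci and over genes with at least 1 FPKM, but with the normal p of the deposited statistic 0 of the 10 members were called higher. The other listed decay genes, with 4 called lower, had 2 at an adjusted p under 0.01, 1 at 1.5-fold with or without centring, and 0 with the normal p. The target transcripts, with 4 called higher, had 3 at an adjusted p under 0.01 and with the normal p, Il23a being lost in both. With 2 called lower, they had 0 at an adjusted p under 0.01, 1 at 1.5-fold with or without centring, and 0 with the normal p. Over all genes the normal p called 245 in place of 749, and the threshold of 0.01 called 436. The 78 tested rows with no usable statistic were counted as 0 for the normal p. They could therefore not be called in that setting, and they stayed in its adjustment. Every member kept the sign of its log2 ratio with pseudocounts of 0.1 and 1 and with centring, and no family share moved by 1 percentage point without relatives under 1 FPKM. Depth per library is unknown, which limits the precision that can be stated for any level.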

Other observations

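Outside the 10 regulators and their listed targets, the hairpin centred on TTCTGTGAA that Rc3h1, Rc3h2, Tnf and Nfkbid share was found in 26 other genes, chosen here after the sequences were seen. Of all 30 genes, 23 were tested, and 0 were called higher and 1 lower by Cuffdiff in the authors' deposited table, with a median log2 ratio of -0.02. Over all tested genes 3.97% were called higher and 2.55% lower, so this count is near the background. The gene called was Pdzk1ip1, a small membrane protein gene, which fell from 7.75 FPKM in vehicle to 3.78 FPKM in SAA1 (log2 ratio -1.04 ± 0.35, adjusted p 0.0019 in the authors' deposited table), a call lost with the normal p (adjusted p 0.11). Socs4, of the suppressor of cytokine signalling family, was at 25.8 FPKM in vehicle and 19.5 FPKM in SAA1 (-0.41 ± 0.21, adjusted p 0.089 in the authors' deposited table). Efna4, an ephrin ligand gene, was at 1.23 and 2.17 FPKM (0.82 ± 0.40, adjusted p 0.079 by the authors' test). Rora, which encodes a nuclear receptor of Th17 cells and whose locus overlaps another row, also holds this hairpin and was at 14.6 and 18.3 FPKM. After Pdzk1ip1, the genes Efna4, Socs4 and Rora had the smallest unadjusted p-values of the 23 in the authors' test, so they are not typical of the 23. None of them was called.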
